A study of Sus scrofa with 22 samples.

Results

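TNIK, TCEA3, TMEM100, NUPR1, GAB1, DNAJC12 and STOM are 7 genes whose mRNA response to pregnancy differed between cell types of the porcine endometrium. They were selected on their measured log2 fold changes in the 3 deposited count tables, which is why those values are a description here. All 7 were listed in all 3 tables, among 10643 genes listed in all 3 and 12401 genes listed in at least 1. RNA sequencing was performed on cells that had been cut out of endometrial sections by laser capture microdissection (LCM). Libraries were made from the luminal epithelium (LE), the glands (glandular epithelium, GE) and the stroma (S). They came from 8 prepuberal crossbred gilts (German Landrace and Piétrain), in which PMSG followed by hCG was used to synchronize ovulation in both groups. The pregnant gilts were inseminated with semen and the cyclic control gilts with the supernatant of centrifuged semen from the same boar, and all were sampled on Day 12. LE and GE were collected from 4 pregnant (gilts 01, 03, 05 and 14) and 4 control gilts (02, 04, 06 and 13). S libraries were available from 3 pregnant (01, 05 and 14) and 3 control gilts (02, 04 and 13). The paper describes 4 gilts per group for every cell type, but S of gilts 03 and 06 is not among the libraries. Each gilt gave at most 1 library for each cell type, so the 22 libraries hold 8 animals and not 22 independent samples. The S areas are, by the study's own account, a mixture of fibroblasts with other cells, mainly immune cells.

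The uterine epithelium of the pig faces the elongating conceptuses on the luminal side and lines the secretory glands below. The conceptuses are known to secrete estrogens and interleukin 1 beta and, somewhat later, interferons, and LE is the endometrial layer nearest to them. The 7 genes act at different steps of cell regulation. GAB1 is a docking protein that couples receptor tyrosine kinases to downstream kinases, and TNIK is a STE20-type kinase linked to Wnt signaling and the cytoskeleton. TMEM100 is a transmembrane protein known as a target of BMP signaling in endothelium. TCEA3 is a TFIIS-type transcription elongation factor, and NUPR1 is a small stress-induced nuclear protein. DNAJC12 is a J-domain co-chaperone of aromatic amino acid hydroxylases, and STOM (stomatin) is an integral membrane protein of lipid rafts that modulates ion channels.

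The counts on listed genes ranged from 893912 (pregnant LE, gilt 01) to 4020796 (control LE) per library. Levels are given as CPM, read counts relative to the library total after scaling with TMM factors over the 22 libraries. A level of 3 counts equals 0.703 to 3.61 CPM, with the highest value in pregnant LE of gilt 01. The labelled cell types were checked against marker genes. The summed level of 8 epithelial markers was 3000 to 4440 CPM in LE and 798 to 3390 CPM in GE, with the lowest GE value in control gilt 02. It was 2780 to 3400 CPM in control S and 1190 to 4280 CPM in pregnant S, so that 3 of the 6 S libraries lay within the range of LE and 3 below it. Of 3 gland markers, only FOXA2 was listed, in GE and S but not in LE. Its level was 16.6 to 79.1 CPM in control GE and 45.6 to 109 CPM in pregnant GE. In S, FOXA2 was 11.3 to 63 CPM in control and 24.8 to 133 CPM in pregnant gilts, with the highest value in gilt 14. The sum of 8 fibroblast markers was 4710 to 8650 CPM in control S against 11700 to 17300 CPM in control LE. In pregnant S, it was 8230 CPM in gilt 05 and 12100 CPM in gilt 14, within the 7760 to 20600 CPM of pregnant LE, and 59700 CPM in gilt 01. The 3 control S libraries thus had fewer fibroblast marker counts than control LE, against their label, and only S of gilt 01 exceeded LE. Libraries standing apart were this S library, control GE of gilt 02 (46200 CPM of fibroblast markers) and pregnant LE of gilt 01. The latter had a sum of 3 smooth muscle markers of 5130 CPM, against at most 642 CPM in the other LE libraries, and the highest fibroblast (20600 CPM) and blood endothelial (1540 CPM) sums in LE. Within LE, 5 of the 8 epithelial markers were called between pregnant and control gilts, beside 10.0% of all genes listed in LE. CDH1 and CLDN4 were higher, and KRT7, KRT8 and KRT19 were lower. In the 8 fits that each left out 1 gilt, CLDN4 and KRT8 were called in all, KRT7 in 5, KRT19 in 2 and CDH1 in 1. The part of other cells in the results was not tested. Results are given with and without gilts 01 and 02 below.

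In LE, 5 of the 7 genes were lower in pregnant than in control gilts (TNIK, TCEA3, TMEM100, DNAJC12 and STOM) and 2 were higher (NUPR1 and GAB1). In GE, only TCEA3 was lower on average, and the other 6 were higher with overlapping groups. In S, 5 genes were higher and 2 lower. In the same S libraries the lymphatic endothelial marker LYVE1 was called higher in pregnant gilts (log2 FC 4.51, edgeR FDR 0.109, called in 4 of 6 leave-one-out fits). Of the 8 epithelial markers, edgeR called only KRT7 (lower, -3.14, FDR 0.122, in 2 of 6 leave-one-out fits), and their median was -0.30. KRT8 (-1.38), KRT18 (-1.15), KRT19 (-0.50) and ESRP1 (-0.10) were also below 0. EPCAM (0.38), CDH1 (0.21) and CLDN4 (0.25) had values above 0. In edgeR, 3 of the 8 had an unadjusted p below 0.05, and DESeq2 called 3. The median log2 FC was 1.55 over 8 fibroblast and 2.98 over 3 smooth muscle markers. The fibroblast sum was 59700 CPM in pregnant gilt 01, against 8230 and 12100 CPM in gilts 05 and 14. The part of these cells in the S values was not tested. These responses chose the genes, so they are described with their standard errors (SE) and carry no test. The libraries of pregnant and control gilts did not overlap for 6 of the 7 genes in LE, for 0 in GE and for 4 in S. Over all common genes, this separation was found for 26.7% in LE, 5.13% in GE and 17.2% in S.

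**Figure D1:**
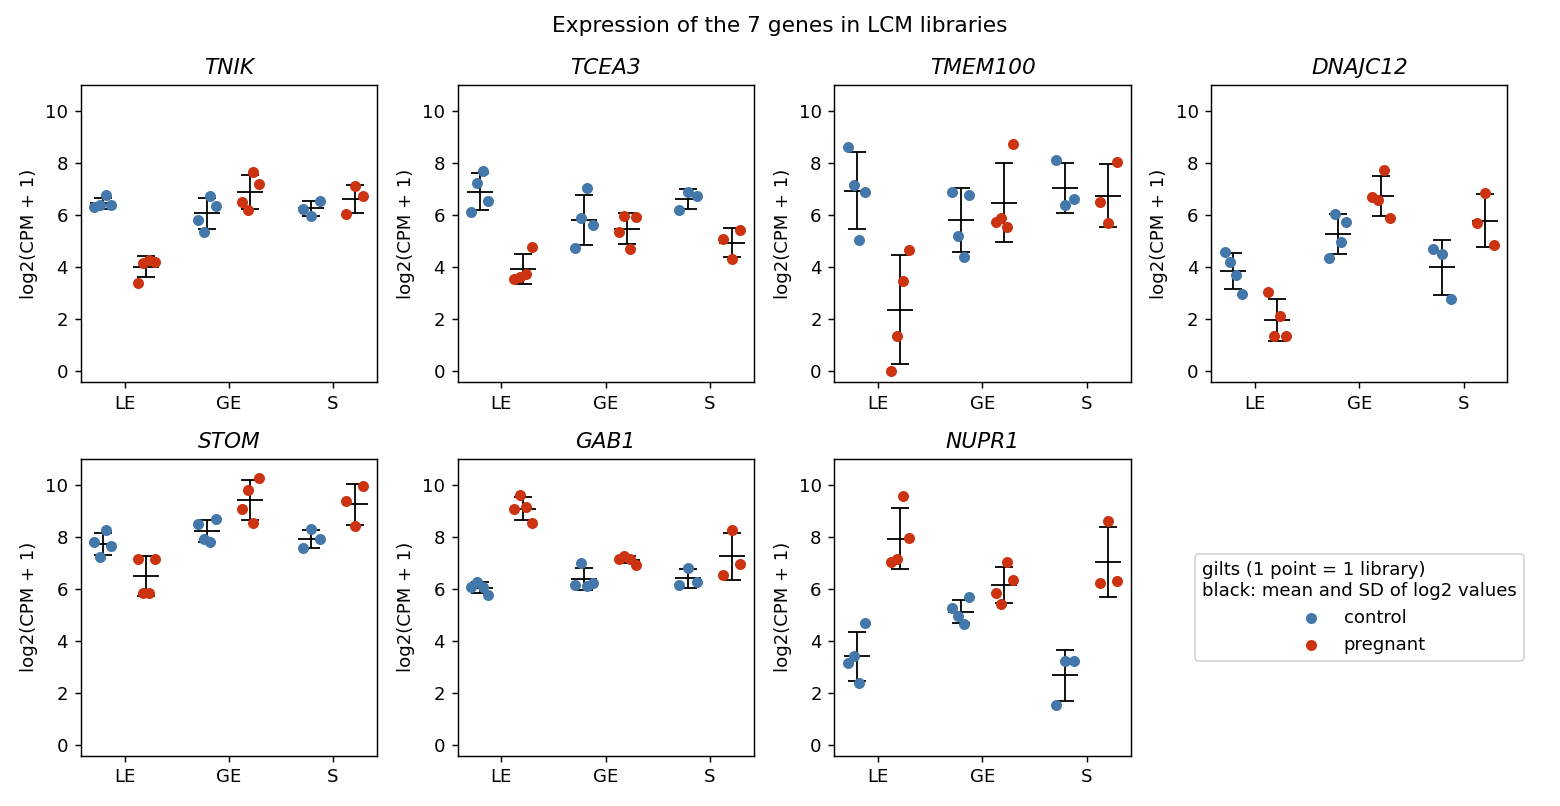
Expression of each gene as log2(CPM + 1) on the y axis for the LE, GE and S libraries of control (blue) and pregnant (red) gilts, with 1 point per library and the mean and SD in black. The 4 pregnant LE libraries form the lowest group for TNIK, TCEA3, TMEM100, DNAJC12 and STOM and the highest for GAB1 and NUPR1.

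GAB1 binds to activated growth factor receptors and recruits further signaling proteins. In LE, the level of GAB1 was 66.9, 76.2, 66.0 and 52.9 CPM in control gilts 02, 04, 06 and 13. In pregnant gilts 01, 03, 05 and 14 it was 531, 776, 565 and 371 CPM. Even the lowest pregnant LE library was above every GE and S library, where GAB1 did not exceed 307 CPM. The log2 fold change (FC) in LE was 3.09 (SE 0.25, n = 4 per group), which equals an 8.51-fold higher level. In GE, GAB1 was 71.0, 127, 69.1 and 73.1 CPM in the control gilts and 142, 153, 141 and 120 CPM in the pregnant gilts. Control gilt 04 (127 CPM) lay above pregnant gilt 14 (120 CPM), and the log2 FC was 0.72 (SE 0.22). In S, values were 69.4, 112 and 76.1 CPM in the controls against 91.6, 307 and 122 CPM in the pregnant gilts. The S difference of 1.05 (SE 0.47) leaned on gilt 05, without which it was 0.35. The response in LE exceeded that in GE by 2.39 (SE 0.44) and that in S by 2.08 (SE 0.48) on the log2 scale. Without gilt 05, the excess over S was 2.78.

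NUPR1 was the other gene that was higher in pregnant LE, and it shared this response with S rather than with GE. Its LE level was 7.90, 9.80, 4.23 and 24.6 CPM in the control gilts and 130, 142, 756 and 246 CPM in the pregnant gilts. In S, it was 1.95, 8.48 and 8.45 CPM in the controls and 73.0, 384 and 77.5 CPM in the pregnant gilts. The groups were far apart in both, with a log2 FC of 4.74 (SE 0.72) in LE and 4.83 (SE 0.88) in S. In GE, control values were 37.3, 29.8, 23.9 and 50.1 CPM and pregnant values were 56.2, 41.9, 129 and 81.1 CPM. GE thus had the highest control level of the 3 cell types, the groups overlapped, and the log2 FC was 1.13 (SE 0.38), or 0.74 without gilt 05. The response in LE exceeded that in GE by 3.62 (SE 0.93). It differed from that in S by -0.05 (SE 0.95), a value whose sign changed between leave-one-out fits (-0.43 to 0.38). The spread among pregnant gilts was large, since gilt 05 was 3.07 times the next library in LE, 1.59 times in GE and 4.95 times in S. Without gilt 05, the log2 FC in S was 3.59. The S library of gilt 05 had an epithelial marker sum of 4280 CPM, within the range of LE, as had control S of gilts 02 and 13. The part of epithelial cells in the S values was not tested.

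TMEM100 had the widest difference between LE and GE. In LE, it was 397, 142, 32.5 and 119 CPM in control gilts 02, 04, 06 and 13. It was 0, 1.59, 10.2 and 24.1 CPM in pregnant gilts 01, 03, 05 and 14, which were 0, 3, 33 and 76 counts. The highest pregnant library stayed below the lowest control, although the 0 of gilt 01 stands for any level up to 3.61 CPM in this shallow library. The log2 FC in LE was -4.03 (SE 0.90), and it was -2.97 without gilts 01 and 02. In GE, the control values were 119, 35.8, 20.2 and 109 CPM and the pregnant values 52.7, 58.2, 45.4 and 426 CPM. The GE mean was thus carried by gilt 14, and the log2 FC of 1.03 (SE 0.87) became -0.47 without it. In S, the values were 278, 82.1 and 96.3 CPM in the controls and 89.3, 50.6 and 265 CPM in the pregnant gilts, with a log2 FC of -0.15 (SE 0.71). This value ranged from -1.09 (without gilt 14) to 0.64 (without gilt 02) and changed sign also without gilt 01 or 05, so no direction can be given in S. The difference of the responses was -5.11 (SE 1.36) for LE minus GE and -3.91 (SE 1.43) for LE minus S.

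Since TMEM100 is best known from endothelium, blood endothelial markers were looked at in the same libraries. All 8 markers of the list were listed in LE, with summed levels of 605 to 917 CPM in control and 620 to 1540 CPM in pregnant gilts. edgeR called 0 of the 8 in LE (3 had an unadjusted p below 0.05 and DESeq2 called 1), and their median log2 FC was 0.42. The endothelial sum was highest in pregnant LE of gilt 01, the library in which TMEM100 had 0 counts. In GE, gilt 14 had the highest TMEM100 level and, at 150 CPM, the lowest endothelial sum of the pregnant gilts. Among the controls, gilt 02 had both the highest TMEM100 level and the highest endothelial sum in LE (397 and 917 CPM). The same held for gilt 02 in control GE (119 and 1270 CPM). The part of endothelial cells in the TMEM100 values was not tested.

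TNIK had the smallest SE of the 7 genes in LE. The control gilts had 79.0, 82.4, 108 and 82.0 CPM and the pregnant gilts 9.64, 17.0, 18.5 and 17.4 CPM. All 4 pregnant LE libraries were also below every one of the 14 GE and S libraries, the lowest of which had 40.2 CPM. The log2 FC in LE was -2.44 (SE 0.22), or a 5.42-fold lower level. In GE, TNIK was 56.0, 40.2, 105 and 81.8 CPM in the control and 90.2, 72.8, 200 and 147 CPM in the pregnant gilts. In S, it was 74.9, 62.1 and 92.6 CPM in the control and 65.2, 137 and 105 CPM in the pregnant gilts. The groups overlapped in both, with a log2 FC of 0.85 (SE 0.39) in GE and 0.45 (SE 0.32) in S, and of 0.52 and 0.18 without gilt 05. LE differed from GE by -3.29 (SE 0.47) and from S by -2.87 (SE 0.51) in the response.

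TCEA3 was lower in pregnant LE and S. In LE, it was 68.4, 151, 207 and 92.8 CPM in the control and 10.8, 11.2, 12.3 and 26.3 CPM in the pregnant gilts. In S, the 3 control libraries had 72.9, 119 and 107 CPM and the 3 pregnant libraries 32.6, 19.1 and 42.0 CPM. Neither cell type showed an overlap, and the log2 FC was -3.04 (SE 0.42) in LE and -1.63 (SE 0.36) in S. In GE, the control values of 25.5, 58.6, 132 and 48.2 CPM enclosed the pregnant values of 40.0, 61.9, 25.0 and 59.5 CPM almost entirely. The log2 FC in GE was -0.49 (SE 0.48), and it ranged from -0.76 (without gilt 02) to 0.10 (without gilt 06) when single gilts were left out. The response in LE differed from that in GE by -2.55 (SE 0.65) and from that in S by -1.38 (SE 0.70).

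DNAJC12 and STOM were lower in pregnant LE and higher in pregnant S, with the GE averages higher as well. DNAJC12 was weakly expressed in LE, with 22.9, 17.4, 12.0 and 6.79 CPM in the control and 7.23, 1.59, 3.39 and 1.58 CPM in the pregnant gilts. The pregnant LE values rest on 3 to 11 counts, and gilt 01 lay above control gilt 13. In GE, DNAJC12 was 19.5, 65.6, 30.4 and 52.0 CPM in the control and 104, 95.7, 213 and 58.5 CPM in the pregnant gilts. In S, it was 25.3, 21.5 and 5.88 CPM in the control and 50.5, 114 and 27.9 CPM in the pregnant gilts, without overlap. The log2 FC was -2.31 (SE 0.54) in LE, 1.51 (SE 0.47) in GE and 1.90 (SE 0.67) in S. Without gilt 05, the value in S was 1.19. The difference of the responses was -3.81 (SE 0.86) for LE minus GE and -4.19 (SE 0.93) for LE minus S.

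STOM was expressed at 221, 148, 303 and 201 CPM in control LE and at 142, 55.8, 56.5 and 141 CPM in pregnant LE. The gap was narrow, from 142 to 148 CPM, and the log2 FC of -1.16 (SE 0.36) was the smallest of the 7 genes in LE. In GE, STOM was 357, 243, 220 and 406 CPM in the control and 533, 893, 370 and 1210 CPM in the pregnant gilts. Pregnant gilt 05 (370 CPM) lay below control gilt 13 (406 CPM), and the log2 FC was 1.29 (SE 0.40). In S, the 3 control libraries had 189, 311 and 239 CPM and the 3 pregnant libraries 665, 338 and 988 CPM, with a log2 FC of 1.47 (SE 0.43). LE differed from GE by -2.45 (SE 0.58) and from S by -2.58 (SE 0.63).

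**Figure D2:**
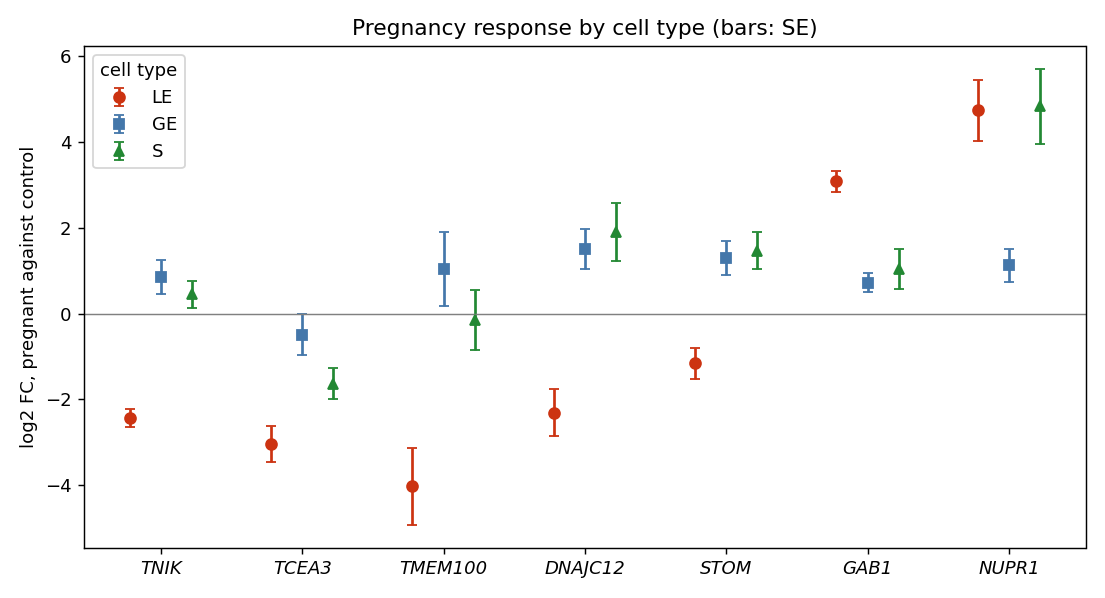
Log2 FC of pregnant against control gilts (y axis) for the 7 genes (x axis) in LE (red circles), GE (blue squares) and S (green triangles), with bars for the SE. LE values are below 0 for 5 genes and above 0 for GAB1 and NUPR1, where S lies at the LE value for NUPR1 (4.83 and 4.74).

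Without gilts 01 and 02, each gene had the same sign in LE and in the LE minus GE difference. The log2 FC in LE was then -2.36 for TNIK, -3.16 for TCEA3, -2.40 for DNAJC12, -1.36 for STOM, 3.13 for GAB1 and 4.85 for NUPR1. The LE minus GE difference was -3.30 for TNIK, -2.52 for TCEA3, -4.71 for TMEM100, -3.77 for DNAJC12, -2.93 for STOM, 2.44 for GAB1 and 3.53 for NUPR1. In S, TMEM100 changed sign to 0.82 without these gilts, and the other 6 genes kept theirs.

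Because LE and GE of a gilt come from the same animal, both were also compared within each gilt. In all 4 control gilts, TCEA3 and TMEM100 were higher in LE than in GE, and in all 4 pregnant gilts they were lower. TNIK was also lower in LE in all 4 pregnant gilts. In control gilts 06 and 13 it was nearly equal in LE and GE (log2 differences of 0.03 and 0.00), and in gilts 02 and 04 it was higher in LE. The within-gilt log2 difference of TNIK was 0.00 to 1.02 in control and -3.38 to -2.06 in pregnant gilts. For TCEA3 it was 0.65 to 1.40 against -2.40 to -0.98, and for TMEM100 0.13 to 1.97 against -6.23 to -2.08. The -6.23 belongs to gilt 01, whose LE library had 0 TMEM100 counts, so its size depends on the prior count of 2. GAB1 and NUPR1 showed the opposite order, with LE below GE in 4 of 4 control gilts and above GE in 4 of 4 pregnant gilts. The difference was -0.73 to -0.07 against 1.63 to 2.34 for GAB1, and -2.31 to -1.01 against 1.20 to 2.55 for NUPR1. DNAJC12 and STOM were lower in LE than in GE already in 3 of 4 control gilts, and in 4 of 4 pregnant gilts by a wider margin. The difference of DNAJC12 was -2.81 to 0.23 in control and -5.70 to -3.73 in pregnant gilts, and that of STOM was -1.01 to 0.47 and -3.98 to -1.90. The control and pregnant ranges of the LE minus GE difference did not meet in any of the 7 genes, which is the difference they were chosen by. Of all common genes, 10.4% were separated in this way.

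**Figure D3:**
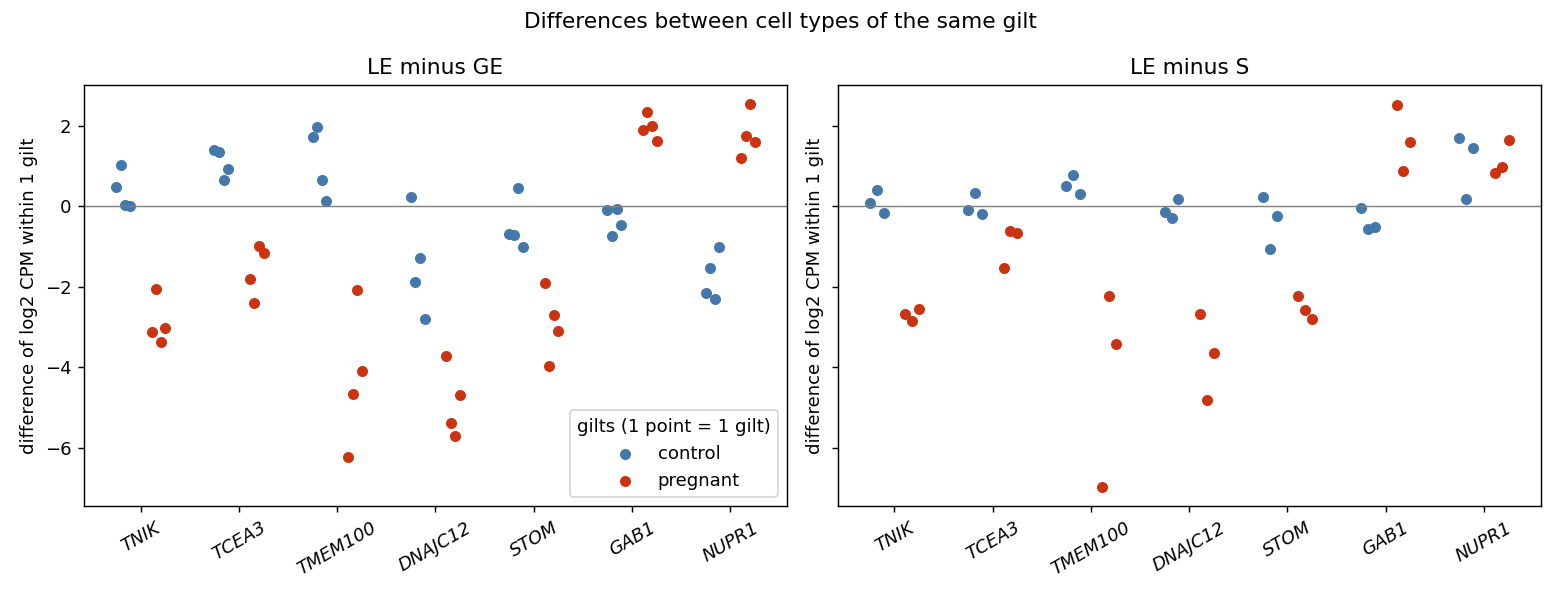
Difference of log2 CPM between cell types of the same gilt (y axis), LE minus GE on the left and LE minus S on the right, with 1 point per control (blue) or pregnant (red) gilt. For LE minus GE the colors are separated in every gene, whereas for LE minus S the NUPR1 values of both groups lie above 0 and overlap.

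The cell types were also compared in the control gilts alone, in the joint fit. This describes where the genes stood without pregnancy and carries no test, since control values entered the choice of the genes. Between LE and GE, the log2 difference in controls was 0.30 (SE 0.32) for TNIK, -0.37 (SE 0.31) for GAB1 and -0.49 (SE 0.40) for STOM. These genes hence differed little between the epithelia of control gilts, whereas in pregnant gilts the difference was -2.99 (SE 0.35), 2.01 (SE 0.32) and -2.93 (SE 0.43). TCEA3 (0.97, SE 0.44) and TMEM100 (1.28, SE 0.90) were on average higher in control LE than in control GE, and DNAJC12 (-1.51, SE 0.55) and NUPR1 (-1.57, SE 0.67) were lower. DNAJC12 was the gene with the widest gap in pregnant gilts, at -5.32 (SE 0.69). Between LE and S, the control difference was smaller than its SE for TNIK, TCEA3, TMEM100, DNAJC12 and STOM, with values from -0.26 (DNAJC12) to 0.38 (TCEA3). It was -0.39 (SE 0.34) for GAB1 and 0.89 (SE 0.78) for NUPR1. The widest control difference between GE and S was that of NUPR1, with 2.46 (SE 0.79).

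The level averaged with equal weight over pregnant and control gilts was tested with the quasi-likelihood F test of edgeR (FDR below 0.01 over the 10643 common genes). Such an average contains the response that chose the genes. For TNIK, TCEA3, TMEM100, NUPR1 and GAB1, its sign against GE was opposite to that of the control gilts. The counts and the shares of all genes beside them are thus a description, and no excess over all genes can be read from them. For LE against GE, 4 of the 7 genes passed, 3 lower in LE (DNAJC12 -3.41, STOM -1.71 and TNIK -1.34) and 1 higher (GAB1, 0.82). Of all common genes, 14.1% passed, 7.83% lower and 6.31% higher in LE. GAB1 passed in only 1 of 8 leave-one-out fits, that without gilt 05, and the other 3 genes in all. For LE against S, DNAJC12 (-2.35) and TNIK (-1.24) passed, while 0.799% of all common genes did, and each passed in only 1 of 8 leave-one-out fits (DNAJC12 without gilt 14 and TNIK without gilt 06). With the gilt as a block, TMEM100 (-1.27 for LE against GE) and STOM (-1.47 for LE against S) passed as well, although TMEM100 was higher in LE than in GE in 4 of 4 control gilts. For GE against S, 0 of the 7 genes passed in edgeR or DESeq2, as did 0% of all common genes in edgeR, and 1 of the 7, DNAJC12 (1.06), had an unadjusted p below 0.05.

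Ordered by mean level, pregnant LE was the last of the 6 groups for TNIK, TCEA3, TMEM100, DNAJC12 and STOM and the first for GAB1 and NUPR1. The order of the remaining groups was mostly not separable. For TNIK, pregnant GE (128 ± 57.8 CPM, SD, n = 4), pregnant S (102 ± 35.9, n = 3), control LE (87.8 ± 13.3, n = 4), control S (76.5 ± 15.3, n = 3) and control GE (70.8 ± 28.6, n = 4) overlapped from each to the next. Only the step down to pregnant LE (15.6 ± 4.05, n = 4) had no overlap. For GAB1, pregnant LE (561 ± 167, n = 4) stood above pregnant S (173 ± 116, n = 3) without overlap. Between neighbors in the order, a second step without overlap lay between pregnant GE (139 ± 13.7, n = 4) and control S (85.9 ± 23.0, n = 3). Pregnant GE still overlapped control GE (85.0 ± 27.9, n = 4), the group after control S. For STOM, the step from control LE (219 ± 64.4) to pregnant LE (98.9 ± 49.4, n = 4 each) was the only one without overlap. For TCEA3, TMEM100, NUPR1 and DNAJC12, every group overlapped the next in the order.

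Part of the spread within a group was shared by the cell types of a gilt. In the pregnant gilts, gilt 05 had the highest level of both NUPR1 and TNIK in LE, GE and S. Gilt 14 had the highest TMEM100 level in all 3 cell types, at 2.36 times the next gilt in LE, 7.32 times in GE and 2.97 times in S. DNAJC12 was highest in gilt 05 in GE (2.05 times the next) and S (2.26 times), but in LE it was highest in gilt 01. Among the controls, TMEM100 was highest in gilt 02 in all 3 cell types. With the gilt as a block, the SE of the LE minus GE difference of the responses was 0.68 in place of 1.36 for TMEM100, 0.47 in place of 0.93 for NUPR1 and 0.32 in place of 0.65 for TCEA3.

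The genomic positions refer to the Sscrofa11.1 assembly and its RefSeq annotation, in which all 7 genes were found. GAB1 is located at chr8:84257958-84391511 (minus strand), TNIK at chr13:109642848-110052345 (minus), TCEA3 at chr6:81267351-81304902 (minus) and TMEM100 at chr12:32008007-32014094 (minus). NUPR1 lies at chr3:18402781-18404411 (plus), DNAJC12 at chr14:71005326-71050397 (minus) and STOM at chr1:261380087-261407713 (minus). NUPR1 lies inside LOC110260087, an RNA gene of the other strand with which it shares 0 exonic bases. DNAJC12 shares 27 exonic bases with the pseudogene LOC100152383 of the other strand. STOM shares 105 exonic bases with LOC110259667, a pseudogene of the same strand. The log2 FC of LOC110259667 was -1.39 in LE, 1.03 in GE and 1.34 in S, close to that of STOM, and reads of both cannot be fully told apart. It is unknown from the sources used here whether strand was used for counting. Elsewhere in the genome, TNIK had near-identical copies of 65 of its 13543 exonic bases, and the other 6 genes had none.

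The 250 bases upstream of the annotated start of each gene were searched on both strands for 8 motifs. The motifs were the estrogen response element (GGTCA and TGACC around 3 bases of any kind), AP-1 (TGAGTCA), the GAS element of STAT factors (TTCNNNGAA), the ATF4 composite element (TTGCATCA or TTGCGTCA), CRE (TGACGTCA), the E-box (CACGTG), the GC box (GGGCGG) and the TATA box (TATAAA). The GAS element was found upstream of TMEM100 and GAB1, and in 5.58% of the same windows of 10639 genes. TCEA3 held an ATF4 composite element (1.02% of all windows) and an E-box (7.71%), and STOM held a GC box (57.2%). The other 4 motifs were found in none of the 7 windows, and they occurred in 0.0094% (estrogen response element), 2.21% (AP-1), 2.34% (CRE) and 7.02% (TATA box) of all windows. The matches in the printed windows do not overlap each other. The 3 windows with a GAS or ATF4 match are shown since they belong to 2 genes that were lower (TCEA3 and TMEM100) and 1 that was higher (GAB1) in pregnant LE. They are written 5′ to 3′ along the minus strand, on which the genes are transcribed, with the matches in capitals, at chr6:81304903-81305152, chr12:32014095-32014344 and chr8:84391512-84391761.
TCEA3: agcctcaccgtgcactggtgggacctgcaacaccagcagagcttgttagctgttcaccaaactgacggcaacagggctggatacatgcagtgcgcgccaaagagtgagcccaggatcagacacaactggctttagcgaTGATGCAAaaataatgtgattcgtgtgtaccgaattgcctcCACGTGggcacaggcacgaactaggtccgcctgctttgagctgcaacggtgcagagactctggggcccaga
TMEM100: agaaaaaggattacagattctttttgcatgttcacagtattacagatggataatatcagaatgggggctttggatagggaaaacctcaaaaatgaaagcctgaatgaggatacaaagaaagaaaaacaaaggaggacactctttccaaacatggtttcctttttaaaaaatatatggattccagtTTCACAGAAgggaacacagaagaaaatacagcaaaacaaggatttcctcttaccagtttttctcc
GAB1: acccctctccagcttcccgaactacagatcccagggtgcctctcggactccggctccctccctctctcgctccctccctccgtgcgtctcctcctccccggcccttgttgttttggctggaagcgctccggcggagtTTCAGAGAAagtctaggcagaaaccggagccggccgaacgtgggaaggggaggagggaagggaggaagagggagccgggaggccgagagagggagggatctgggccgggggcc
The sequences are RefSeq's for Sscrofa11.1, and a match is a run of letters and not a tested binding site. The GC content of these windows was 55.6% for TCEA3, 35.2% for TMEM100 and 66.8% for GAB1, against a median of 60.8% over the 10639 genes.

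The genes next to the 7 on the chromosome were looked at in LE, where 10.0% of the 11415 listed genes were called in pregnant against control gilts (FDR below 0.01). Of 13 nearest listed neighbors, 4 were called by edgeR and 5 by DESeq2. LOC110259667, which overlaps STOM, was left out of this count. REEP3, the nearest listed gene at lower coordinates than DNAJC12, lies 3934.1 kb from it. Next to GAB1, USP38, which encodes a deubiquitinase, rose in LE by a log2 FC of 2.58 (SE 0.24, FDR 0.000108) and SMARCA5, a chromatin remodeler, by 1.30 (SE 0.22, FDR 0.00267). They lie 176.0 and 33.0 kb from it. EIF5A2, 112.4 kb from TNIK, rose by 1.02 (SE 0.18, FDR 0.00347), while TNIK itself was lower. PCTP, a phosphatidylcholine transfer protein gene 29.7 kb from TMEM100, showed a log2 FC of -1.98 (SE 0.37, FDR 0.00443), the same sign as TMEM100. Only USP38 was called in all 8 leave-one-out fits, SMARCA5 in 6, EIF5A2 in 5 and PCTP in 3. In GE and S, 0 of the 13 neighbors passed the p threshold of 0.0021 in edgeR, 1 in GE and 0 in S had an unadjusted p below 0.05, and DESeq2 called 0 in both.

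Related genes were described in 7 lists, 1 for each gene, with 123 of 140 genes listed in LE. Of these, 13 were called in LE (10 higher and 3 lower), which is 10.6% and near the 10.0% of all listed genes (6.33% higher and 3.71% lower). In GE, 0 of 121 were called (0.694% of all genes were), with 10 at an unadjusted p below 0.05 and 3 called by DESeq2. In S, 2 of 122 were called (1.64%, against 1.47% of all genes). The called genes are named below, and their number says nothing particular about the lists.

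Partners of GAB1 were among the called genes. MET, the hepatocyte growth factor receptor, rose in LE from 357 ± 61.3 to 1400 ± 557 CPM (SD, n = 4 per group; log2 FC 1.97, SE 0.30, edgeR FDR 0.00133). ERBB3, a receptor of neuregulins, rose from 44.1 ± 23.0 to 336 ± 171 CPM (2.92, SE 0.45, FDR 0.00146), and RASA1, a Ras GTPase-activating protein, rose by 1.31 (SE 0.21, FDR 0.00172). All 3 were called in each leave-one-out fit. The other 17 of the 20 listed genes were not called, among them PTPN11 (0.52, FDR 0.0301) and GRB2 (0.42, FDR 0.145), which encode a tyrosine phosphatase recruited by GAB1 and an adaptor that binds it. The median log2 FC of the list was 0.37, beside 0.01 over all genes in LE.

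In the list of TNIK, kinases of its own family moved differently. MAP4K4, a close relative of TNIK, rose in LE from 125 ± 14.2 to 497 ± 124 CPM (log2 FC 1.98, SE 0.20, FDR 0.000175). MINK1, the other close relative, stayed at 81.2 ± 11.5 and 70.3 ± 8.0 CPM (-0.22, FDR 0.393). TRAF2, an adaptor that binds TNIK, rose by 1.73 (SE 0.25, FDR 0.00122), and RAP2A, a small GTPase upstream of it, by 1.31 (SE 0.24, FDR 0.00435). RAP2A was called in 2 of 8 leave-one-out fits, with a log2 FC of at least 1.19, and the others in all. The remaining 10 of 13 listed genes were not called, and the median was -0.07.

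The list of NUPR1 held genes of the integrated stress response, and its called members had both signs. ATF4, the transcription factor at its center, rose in LE from 178 ± 24.1 to 391 ± 104 CPM (log2 FC 1.13, SE 0.22, FDR 0.00547). It was called in 1 of 8 leave-one-out fits, with a log2 FC of 1.01 to 1.30 in all. CEBPB, a transcription factor of stress and inflammation, rose from 35.7 ± 9.48 to 144 ± 37.8 CPM (FDR 0.000612) and was called in all 8. PSAT1, an enzyme of serine synthesis, fell from 798 ± 285 to 107 ± 37.1 CPM (-2.89, SE 0.36, FDR 0.000475). PSAT1 also fell in S, from 620 ± 180 to 56.5 ± 18.4 CPM (-3.42, SE 0.38, edgeR FDR 0.0297), and it was called in each leave-one-out fit of both cell types. SESN2, a stress-induced regulator of mTORC1, fell by 1.41 in LE (SE 0.26, FDR 0.00376). It was called in 4 of 8 leave-one-out fits, with a log2 FC of -1.55 to -1.25. The other 15 of 19 listed genes were not called. Among these, ATF3 (1.68, FDR 0.0113), PPP1R15A (1.49, FDR 0.0254) and PHGDH (-1.095, FDR 0.0334) lay nearer to the threshold. DDIT3 (0.10, FDR 0.899) and TRIB3 (-0.08, FDR 0.912) differed little. Of the 19 genes, 12 had an unadjusted p below 0.05 in edgeR, and DESeq2 called 7. The median log2 FC of the list was 0.07.

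For the other lists, 3 genes were called in LE. LEO1, a subunit of the PAF1 elongation complex, rose by 1.38 (SE 0.24, FDR 0.00265), as 1 of 22 listed genes related to TCEA3, and was called in all 8 leave-one-out fits. The TFIIS paralogs of TCEA3 were not called in LE, with -0.19 for TCEA1 (FDR 0.508) and -0.97 for TCEA2 (FDR 0.0255). BMPR1B, a type I BMP receptor, fell by 1.08 (SE 0.24, FDR 0.00992), as 1 of 16 genes related to TMEM100. It was called in 1 of 8 leave-one-out fits, with a log2 FC of -1.29 to -0.96. In S, ID2, a target of BMP signaling, was lower with 244 ± 50.4 CPM in control and 62.0 ± 23.5 CPM in pregnant gilts (-1.94, SE 0.34, edgeR FDR 0.0995), and it was called in 3 of 6 leave-one-out fits. DNAJC3, an inhibitor of the kinase PERK, rose in LE by 1.09 (SE 0.18, FDR 0.00248), as 1 of 22 genes in the DNAJC list, and was called in 5 of 8 leave-one-out fits (1.01 to 1.21). In the stomatin list, edgeR called 0 of 11 in LE, with 5 at an unadjusted p below 0.05 and 3 called by DESeq2. The median log2 FC in LE was 0.01 in the list of TCEA3, 0.14 in that of TMEM100, 0.04 in that of DNAJC12 and 0.17 in that of STOM.

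**Figure D4:**
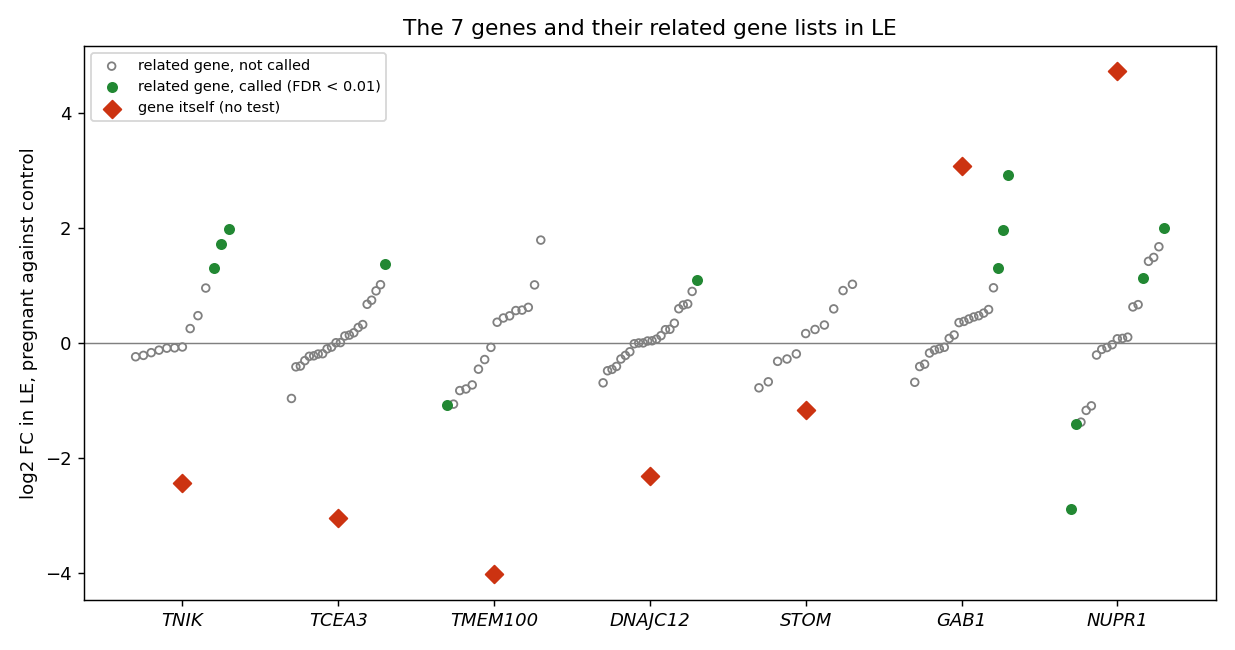
Log2 FC of pregnant against control gilts in LE (y axis) for the genes of the 7 lists (x axis, named by their gene), sorted by value within each list, with called genes filled in green and the gene itself as a red diamond. Each of TNIK, TCEA3, TMEM100, DNAJC12 and STOM lies below all genes of its list and GAB1 and NUPR1 lie above all of theirs, and 13 of the 123 related genes are called.

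The genes with the most similar profiles over the 22 libraries were found by Pearson's r of log2 CPM, as a description, since the libraries share gilts and the same group differences. GAB1 was followed most closely by USP38 (r = 0.984), NIPA2 (0.971) and MRS2 (0.967). DNAJC12 was followed by ANPEP (0.929), ACP5 (0.910) and CDH13 (0.897), and TCEA3 by TNS3 (0.934), ABCA2 (0.926) and HDC (0.915). NUPR1 was closest to NFKBIA (0.915), an inhibitor of NF-kappa-B, and TNIK to MGAT4D (0.904) and the transcription factor GATA2 (0.895). TMEM100 was closest to DNM3 (0.883), and STOM to its overlapping neighbor LOC110259667 (0.936), followed by IRS1 (0.890). With Spearman's rho, 1 of the 3 closest genes was shared for TNIK, TCEA3 and NUPR1, 2 for TMEM100, DNAJC12 and STOM, and 0 for GAB1.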

How the data were processed

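RNA of LCM-collected LE, GE and S was sequenced in 22 libraries. As the paper describes, the authors trimmed the reads, aligned them to Sscrofa11.1 (NCBI) with Hisat2, dropped PCR duplicates recognized by random adapter bases and applied a CPM filter. The deposited tables, 1 per cell type, hold read counts without normalization. Which counter was used, whether strand was considered and which CPM cutoff was set are not given in the sources used here.

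The 7 genes and the lists of related and marker genes were chosen with earlier results of these data known. Named genes are the 7 genes, the called genes of the lists and, per gene, the 3 with the highest Pearson's r (log2 CPM, prior count 2). Neighbors, uncalled list genes given as examples and marker sums were added beyond that rule after their values were seen. Each cell type was fitted in edgeR 4.0.16 (R 4.3.3; TMM, quasi-likelihood F test, pregnant against control) over all its listed genes. Called means an FDR below 0.01 in LE and p below 0.0021 in GE and S, the thresholds of the study. The paper used 0.0021 because it was the p value at this FDR in its own LE analysis. In the LE fit here, BMPR1B with an FDR of 0.00992 had a p of 0.000992. The p threshold in GE and S was thus laxer than that in LE. Differences of responses and levels were taken from a joint fit of the 22 libraries with 6 group means over 10643 genes, with FDR (Benjamini-Hochberg) below 0.01 for levels, which were planned as a test but contain the response that chose the genes. The scripts were tested on simulated data. CPM means carry the SD, and n is the number of gilts. In bulk samples, fewer cells of a type and less RNA per cell cannot be told apart.

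Equal numbers mark 1 animal. Deviations from group means had a median correlation of 0.257 (LE and GE), 0.314 (LE and S) and 0.468 (GE and S) in the same gilt and of -0.0754, -0.138 and -0.188 in different gilts. A fit with the gilt as a block was an alternative. Other alternatives were RLE factors, library size alone, at least 10 counts in every library, DESeq2 1.42.0, only the 6 gilts with S and leaving out each gilt. Leaving out gilts 01 and 02 or the S libraries was chosen after seeing the data. Upstream windows and positions were read from Sscrofa11.1, the build of the files. Limits of 3 counts cover counting error only.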

Additional observations from a re-analysis of the deposited data

Results flagged for a closer look

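In 5 of 28 groups of 4 libraries, 1 library stood apart, with a gap to the nearest library, as a share of the group's range, above Dixon's critical value for 4 values. Chance alone would flag about 1 in 20 groups. For TMEM100 in pregnant GE, gilt 14 (426 CPM) accounted for a gap of 0.966 of the range. For GAB1 in control GE, gilt 04 (127 CPM) gave 0.931. For TCEA3 in pregnant LE, gilt 14 (26.3 CPM) gave 0.903. For TNIK, control LE of gilt 06 (108 CPM) gave 0.883 and pregnant LE of gilt 01 (9.64 CPM, 8 counts) gave 0.831. STOM was below the controls in every pregnant LE library and above them in every pregnant S library, and the difference of both responses was -2.58 on the log2 scale. This difference was not tested because it chose the gene.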

How the results depend on the processing

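Under the alternatives run, no called value changed its sign. Signs changed only in values without a call, namely the log2 FCs of TMEM100 (GE and S) and TCEA3 (GE), the LE minus S response of NUPR1 and the levels of NUPR1 (LE against GE) and of GAB1, TCEA3 and TNIK (GE against S). The number of called genes moved more. In LE, 1146 genes were called, against 2182 with DESeq2, 435 with the 6 gilts that have S, 659 without gilts 01 and 02, and 588 to 1643 when single gilts were left out. In GE, 81 were called, against 241 with DESeq2, 50 with at least 10 counts in every library, 35 with the 6 gilts and 42 to 100 with single gilts left out. In S, 170 were called, against 512 with DESeq2, 70 without gilts 01 and 02 and 65 to 221 with single gilts left out. The averaged levels contain the response that chose the genes, so the counts of levels that passed are a description. For LE against GE, 4 of the 7 genes passed, and 1 with at least 10 counts in every library, a filter that removes most of the 7. For LE against S, 2 passed, against 0 with that filter, 0 without gilts 01 and 02 and 0 to 1 with single gilts left out. The LE minus S response of GAB1 was 2.78 without gilt 05, within a leave-one-out range of 1.74 to 2.78 around 2.08. With the gilt as a replicate block, 5 of 7 levels passed between LE and GE and 3 between LE and S, with no other call changed, and the differences of the responses kept their signs apart from NUPR1 in LE minus S (0.15). With 3 to 33 counts in several pregnant LE libraries, the size of the decreases of DNAJC12 and TMEM100 is imprecise. Paired fits of pregnant against control gilts could not be made since they are different animals.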
